A study of Mus musculus with 11 samples.

Results

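The genes described here code for the proteins of the cytosolic ribosome, measured by bulk RNA sequencing of whole mouse ovaries at 3 ages. They were chosen by name alone: protein coding genes whose symbol is Rpl or Rps with a number (and the usual letter endings), together with Rpsa, Rplp0, Rplp1, Rplp2 and Fau. This gave 84 of the 54232 genes in the table, 52 of the large subunit (the 3 stalk genes included) and 32 of the small subunit. The rule left out Rps3a1, which also codes for a ribosomal protein, because its symbol does not have that form. Of the 84 genes, 82 had enough counts to be tested, and Rpl3l and Rpl10l did not.

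All libraries came from wild-type (WT) ovary, and the labels gave no strain, treatment or cell sort. There were 4 libraries from mice of 2 months, 4 of 18 months and 3 of 24 months, in a study that compares the young ovary with the old and the post-reproductive one. The library names behind the 24 month group carry 22 months instead, and those behind the 2 month group carry 8 weeks. The labels do not say whether libraries came from separate animals, so the p-values below measure only the spread between these samples.

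A ribosome joins a small subunit, which reads the mRNA, and a large subunit, which forms the peptide bond. Each subunit is a frame of ribosomal RNA held by many small basic proteins, most of them present once, so their genes are usually expressed together at high and similar levels. Growing cells, among them the growing oocyte and the dividing granulosa cells around it, make many ribosomes. Many mRNAs of ribosomal proteins begin with a stretch of C and T letters at the 5′ end (the terminal oligopyrimidine tract), through which mTOR signalling sets how strongly they are translated.

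The bases around the annotated transcription start show whether a run of C and T lies near it. The sequences are from RefSeq (build GRCm38.p6), which held a start for 64 of the 84 genes, 76 starts in all. Each line gives 15 bases before and 15 from the start on, read 5′ to 3′ on the gene's strand, and capitals mark the longest unbroken run of C and T that touches the 5 bases on either side of the start, where it reaches 5 bases. The first 4 genes have a long run. The next pair, 2 genes described below as lower in old ovaries, has none. The last pair are the rarely expressed copies described further on.
Rpl28 (chr7:4792950-4792979, plus strand): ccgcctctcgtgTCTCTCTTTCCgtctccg
Rpl7a (chr2:26910792-26910821, plus strand): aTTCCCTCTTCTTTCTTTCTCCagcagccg
Rpl27a (chr7:109519180-109519209, plus strand): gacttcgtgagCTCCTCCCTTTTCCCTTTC
Rps27 (chr3:90213634-90213663, minus strand): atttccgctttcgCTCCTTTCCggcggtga
Rpl41 (chr10:128549154-128549183, minus strand): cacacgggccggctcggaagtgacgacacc
Rpl7l1 (chr17:46782642-46782671, minus strand): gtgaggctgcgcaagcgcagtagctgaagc
Rpl39l (chr16:10170213-10170242, plus strand): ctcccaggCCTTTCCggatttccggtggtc
Rpl10l (chr12:66284387-66284416, minus strand): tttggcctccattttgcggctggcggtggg
A run of at least 8 bases was found at 25 of the 76 starts (32.9%), against 9.38% of the 32851 starts of all genes. The letters CCGGAAG, searched on both strands over the 300 bases around the start (250 before, 50 after), stood in 26 of the 76 windows (34.2%) and in 8.86% of all windows. These are matches of letters and not tested sites. Of the 76 starts, 42.1% began with C or T, against 30.0% of all starts. A marked run can lie partly before the start, so it need not be a tract at the mRNA's 5′ end. A window without a run likewise does not show that the mRNA lacks the tract. The 25 genes with such a run had a median log2 fold change of -0.40 at 18 months and -0.25 at 24 months, both against 2 months, and the 37 tested genes without one -0.36 and -0.23.

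The deeper libraries held 26061630 to 33407509 counts each, while 18 month replicates 3 and 4 were shallower with 5231724 and 8892915. The counts of these 2 libraries agreed within sampling noise (chi-square per gene 1.10, against 28.7 for the next closest pair of that age), so they were summed and counted as 1 sample, and every value rests on 4, 3 and 3 samples. One other sample stood apart. In 2 month replicate 3 the genes described here held 1.67% of the counts, against 2.38%, 2.52% and 2.56% in the other three of that age, and its level was the lowest of its age for most of them. That sample also had the highest sum of the 9 luteal and theca markers (70937 CPM against 30329 to 53323) and the lowest sums of the 14 oocyte markers (286 against 487 to 667) and the 9 granulosa markers (2998 against 3991 to 4103). Its erythroid markers summed to 350.1 CPM against 19.9 to 44.5, its endothelial markers to 813 against 399 to 558, and its cell division genes to 347 against 510.3 to 626. CPM stands for counts scaled to a common library size, with edgeR's TMM factors. In bulk tissue, fewer cells of a type and less RNA per cell cannot be told apart.

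Ribosomal protein genes held a smaller share of the counts in the 18 month ovaries than in 3 of the 4 young ones. At 2 months the 84 genes held 2.38%, 2.52%, 1.67% and 2.56% of all counts, at 18 months 1.86%, 1.91% and 1.76%, and at 24 months 1.94%, 2.26% and 2.22%. The means were 2.28% ± 0.413 (SD, n = 4), 1.84% ± 0.0800 (n = 3) and 2.14% ± 0.176 (n = 3). The ages overlapped, since 2 month replicate 3 lay below every older sample; without it the 2 month mean was 2.48%, and every older sample lay below the other young ones. With pseudogenes that share sequence added, the means were 2.43%, 1.97% and 2.28%.

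**Figure D1:**
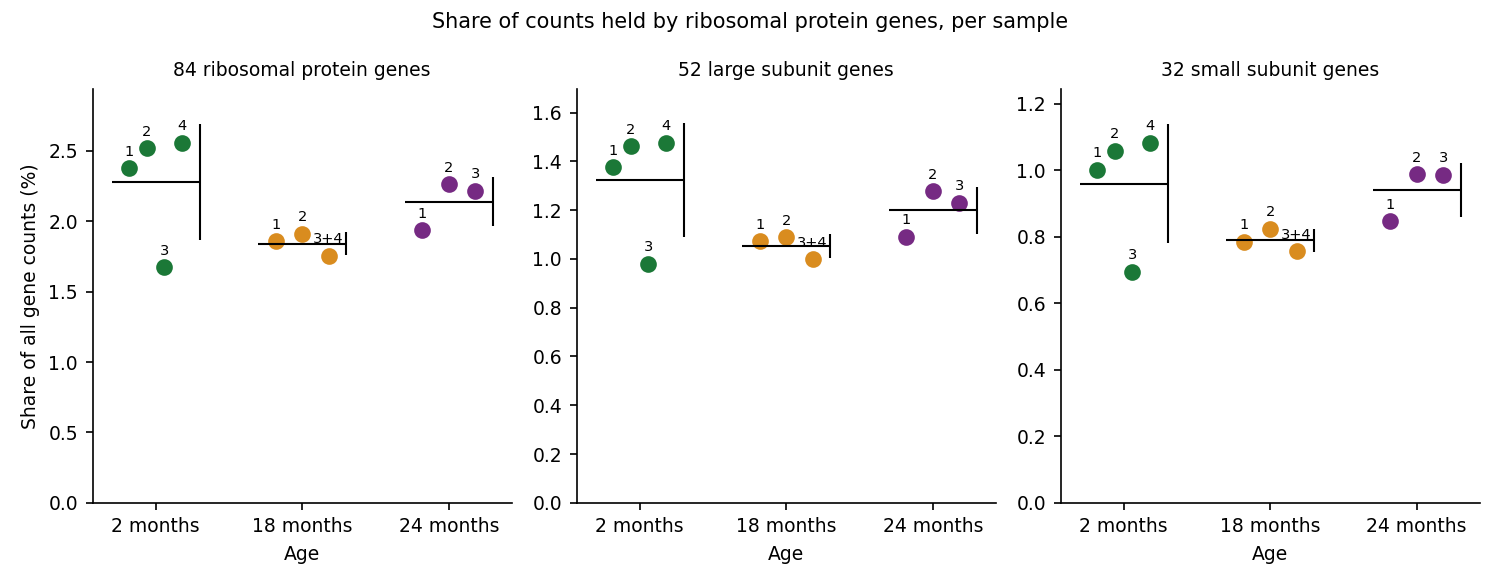
Share of all gene counts (percent, vertical axis) held by the 84 ribosomal protein genes, the 52 large subunit and the 32 small subunit genes, by age; each point is 1 sample with its replicate number, horizontal lines are means and vertical lines the SD. The 2 month sample numbered 3 lies at 1.67% in the left panel, below all others.

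Levels among the genes differed widely. Per kilobase of transcript, which allows genes to be compared, the highest levels at 2 months were those of Rps27 (988 ± 118 CPM per kilobase, SD, n = 4), Rps15 (940.4 ± 107) and Rpl4 (929 ± 126). Their intervals overlap, so their order is not fixed. Rps27 and Rps15 are small subunit proteins, and Rpl4 lines the exit tunnel of the large subunit. At the low end stood Rpl24 (0.756 ± 0.161), Rpl10l (0.183 ± 0.119) and Rpl3l (0.0711 ± 0.0538), and 67 of the 84 genes had a mean above 100 CPM. Rpl24 codes for a core protein of the large subunit. The gene shares 47.0% of its exon bases on the same strand with Gm28037, only 18.3% of its 50-base stretches are unique, and 79.4% of the counts of its family lay in pseudogene copies.

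The copies matter for all values here. Of the 84 genes, 81 shared at least one 50-base stretch with the transcript of another gene, and a median of 66.0% of a gene's stretches was unique. The 1040 pseudogenes with shared stretches held 5.49% to 6.63% of the summed counts of genes and copies. For Rpl26 and Rpl29, 67.5% and 44.7% of the family's counts lay in copies, so their values are uncertain. The 84 genes lie on 20 chromosomes, and 29 of them carry a small nucleolar RNA gene within their span.

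**Figure D2:**
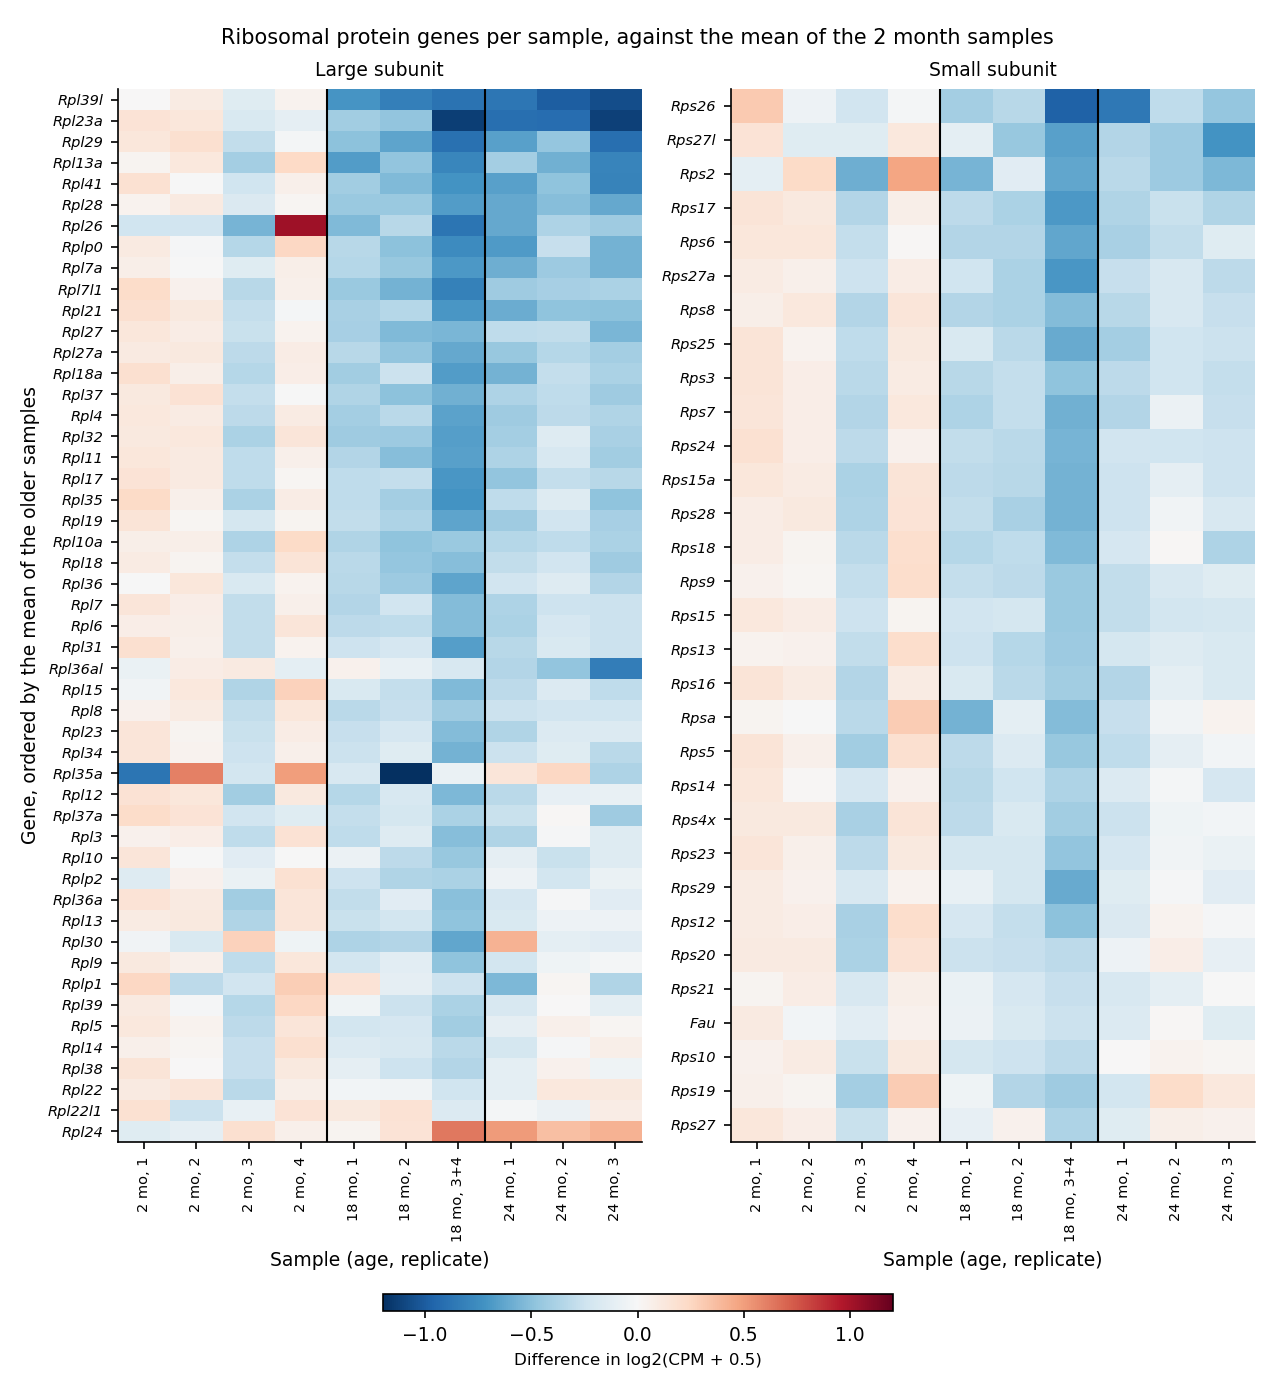
Each row is 1 of 81 of the 82 tested genes and each column 1 sample; colour gives the difference in log2(CPM + 0.5) from the mean of the 2 month samples, blue lower and red higher, and black lines divide the ages. Most rows are blue in the 18 month columns and paler in the 24 month columns, and the 2 month sample numbered 3 is pale blue for most genes; Rpl24 runs the other way.

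The comparison of 18 with 2 months asked which of these genes differ in the old ovary. In all, 17 of the 82 tested genes were lower at 18 months and 0 were higher (edgeR quasi-likelihood test, Benjamini-Hochberg adjusted over 20331 genes, two-sided, adjusted p under 0.05). Among all tested genes, 5.51% were lower and 6.04% higher, so the share of ribosomal protein genes that were lower (20.7%) was above that background. Their median log2 fold change was -0.38 (all genes 0.01), and 80 of 82 lay below 0 (all genes 49.3%). An unadjusted p under 0.05 was reached by 58 of 82, against 29.9% of all genes. For 26 genes every 18 month sample lay below every 2 month sample (all genes 13.7%), and for 0 every one lay above.

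Proteins of the large subunit made up 16 of the 17 genes (of 50 tested), and 1 of 32 small subunit genes passed. The shift itself was similar in both subunits. An unadjusted p under 0.05 (edgeR) was reached by 35 of 50 large and 23 of 32 small subunit genes. Their median log2 fold changes were -0.43 and -0.36, and 48 of 50 and 32 of 32 lay below 0. Rpl28, a large subunit protein, stood at 452, 475, 391 and 447 CPM at 2 months, at 323, 323 and 277 CPM at 18 months and at 287, 309 and 288 CPM at 24 months. It fell by 0.52 in log2 units (standard error 0.110, adjusted p = 0.0217 in edgeR), and all old samples lay below all young ones. Rpl7a, also of the large subunit, stood at 481, 456, 413 and 480.3 CPM at 2 months, at 361, 333 and 283 CPM at 18 months and at 305, 338 and 308 CPM at 24 months. It fell by 0.49 in log2 units (standard error 0.118, adjusted p = 0.0299 in edgeR) and its older samples again lay below the young ones. Only 18.8% of the 50-base stretches of Rpl7a are unique, and 14.4% of its family's counts lay in copies. Rpl41, a very short basic peptide bound mostly to ribosomal RNA, stood at 408, 357, 304 and 374 CPM at 2 months, at 269, 248 and 217 CPM at 18 months and at 228, 257 and 206 CPM at 24 months. It fell by 0.56 in log2 units (standard error 0.135, adjusted p = 0.0303 in edgeR). These 3 genes had moved to between 67.9% and 71.2% of their 2 month means.

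Rpl27, another large subunit protein, stood at 94, 91.1, 71.3 and 88.1 CPM at 2 months, at 64.6, 59 and 58.3 CPM at 18 months and at 69.1, 69.6 and 58.4 CPM at 24 months, and fell by 0.51 in log2 units (standard error 0.115, adjusted p = 0.0258 in edgeR). Rpl36, which has only 18.9% unique stretches, stood at 199, 220.0, 176 and 206 CPM at 2 months, at 159, 148 and 129 CPM at 18 months and at 171, 179 and 156 CPM at 24 months, and fell by 0.47 in log2 units (standard error 0.112, adjusted p = 0.0299 in edgeR). At 24 months its samples overlapped those of 2 months. Rpl29, with many counts in copies, stood at 45.3, 47.3, 33.5 and 40.7 CPM at 2 months, at 29.2, 26.5 and 21.9 CPM at 18 months and at 26.1, 29.9 and 21.8 CPM at 24 months, and fell by 0.69 in log2 units (standard error 0.162, adjusted p = 0.0282 in edgeR); with the copies' counts added the change was smaller, -0.56, and still past the threshold.

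Rpl13a, which beside its place in the ribosome is known for silencing translation of inflammatory mRNAs, stood at 34.8, 37.1, 25.4 and 40.2 CPM at 2 months, at 21.2, 24.3 and 19.5 CPM at 18 months and at 25.5, 22.5 and 19.3 CPM at 24 months. It fell by 0.66 in log2 units (standard error 0.170, adjusted p = 0.0363 in edgeR) and shares 35.4% of its exon bases with Gm45713. Rpl21, with 29.3% of its family's counts in copies, stood at 233, 220.1, 167 and 199.8 CPM at 2 months, at 155, 160.3 and 125 CPM at 18 months and at 135, 146 and 144 CPM at 24 months and fell by 0.48 in log2 units (standard error 0.135, adjusted p = 0.0470 in edgeR). Rpl23a, whose protein sits at the mouth of the exit tunnel where targeting factors dock, stood at 287, 282, 225 and 238 CPM at 2 months, at 192, 184 and 117 CPM at 18 months and at 137, 136 and 118 CPM at 24 months and fell by 0.65 in log2 units (standard error 0.175, adjusted p = 0.0432 in edgeR). For both, all older samples lay below all young ones. The copies Rpl7l1 and Rpl39l are described with the paralogs, and Rpl19, Rpl37, Rpl27a, Rpl18 and Rpl11, named here to complete the count, were the other large subunit genes that were lower. Among genes that did not pass, Rpl26 had the lowest fold, a fitted log2 difference of -0.71 (standard error 0.346, adjusted p = 0.202 in edgeR). Its 2 month samples stood at 70.7, 71.1, 56.4 and 169 CPM, the last far above the others.

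The number of genes past the threshold depended on single samples. Without 2 month replicate 3 it rose to 58 of 82 (34 of 50 large and 24 of 32 small subunit genes, with 7.11% of all genes lower). Without 2 month replicate 1, 2 or 4, 18 month replicate 2 or the summed 18 month sample it was 0. Over all genes, in either direction, 382, 614, 687, 730 and 375 passed in those fits, in that order, against 2349 as reported. Calls thus became fewer over all genes as well, and the cause was not tested. The median stayed between -0.48 and -0.31 when each sample was left out in turn. With library totals in place of TMM 1 gene passed (all genes 1988), and with DESeq2 41 (all genes 4052). Of the genes given with values above, Rpl27 and Rpl29 passed under the most settings, 13 of 21, and Rpl21 under the fewest, 4 of 21.

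**Figure D3:**
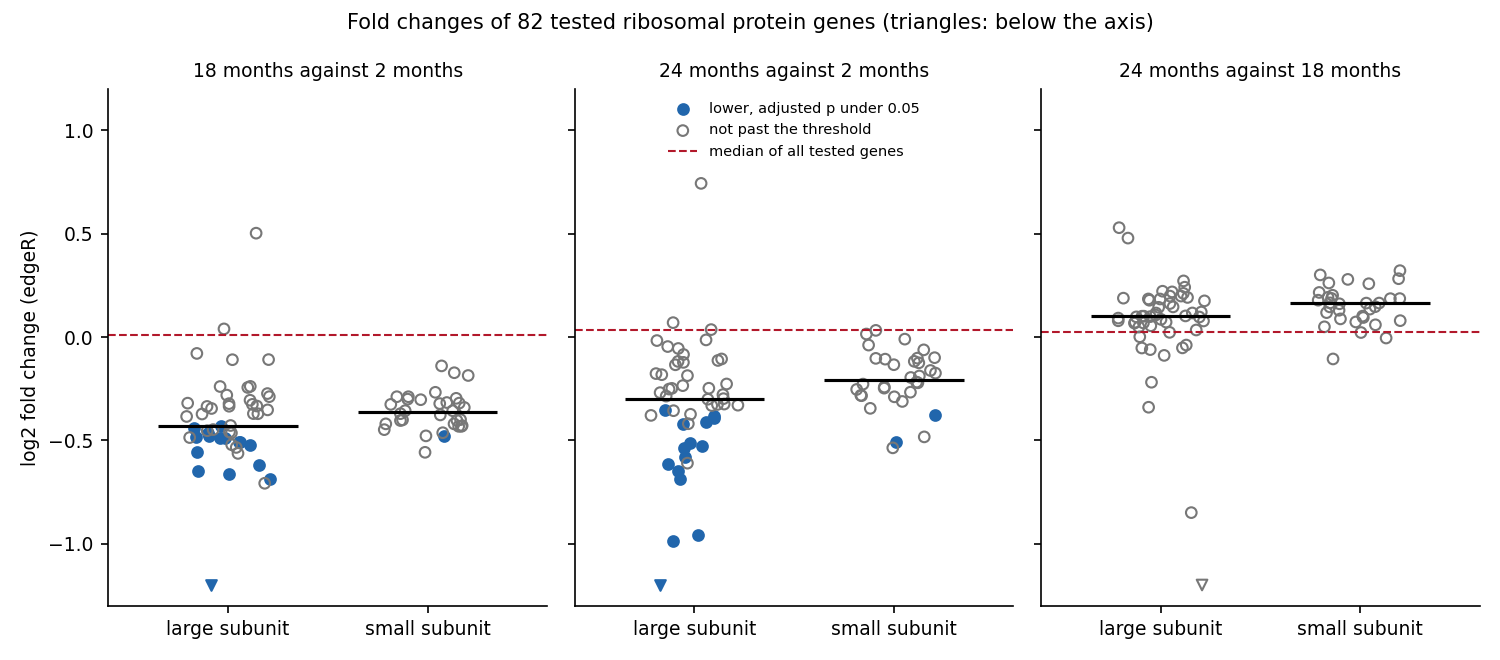
log2 fold changes (vertical axis) of the 82 tested genes, split into 50 large and 32 small subunit genes, for the 3 comparisons; filled blue points passed an adjusted p of 0.05, black bars are medians and the dashed red line is the median of all tested genes. In both comparisons with 2 months the points lie mostly below the dashed line, and most filled points are large subunit genes; triangles stand for Rpl39l, below the drawn range.

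At 24 months against 2 months 17 of 82 genes were again lower and 0 higher, by the same edgeR test. Here 15.8% of all tested genes were lower and 19.2% higher, so the share of 20.7% was near the background and is not a result about these genes. The median log2 fold change was -0.25 (all genes 0.03) and 77 of 82 genes lay below 0 (all genes 48.0%). An unadjusted p under 0.05 was reached by 26 of 82, below the 46.7% of all genes, and the samples did not overlap for 17 lower genes (all genes 20.4%) and for 1 higher gene, Rpl24 (all genes 21.7%). Both comparisons use the same 2 month samples, so they do not support each other. Of the 17 genes, 15 were of the large subunit (of 50) and 2 of the small subunit (of 32).

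Rpl23a (ENSMUSG00000058546, chr11:78180932-78183584, minus strand) had the largest change among genes above 100 CPM at 2 months. All older samples lay below all young ones, and the 24 month samples overlapped the lowest of 18 months. At 24 months it fell by 0.99 in log2 units (standard error 0.177, adjusted p = 0.00469 in edgeR), to 50.4% of the young mean. It passed under 21 of 21 other settings (scalings, filters, models, copies added and samples left out), with adjusted p between 4.03e-06 and 0.0353. Only 17.4% of its stretches are unique and 59.7% of its exon bases overlap Tlcd1 on the other strand; the strand setting of the counting is not given in the sources used here.

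Rpl28 fell by 0.58 in log2 units (standard error 0.110, adjusted p = 0.00566 in edgeR), Rpl41 fell by 0.65 in log2 units (standard error 0.135, adjusted p = 0.00773 in edgeR) and Rpl29 fell by 0.68 in log2 units (standard error 0.162, adjusted p = 0.0121 in edgeR). Rpl28 and Rpl41 passed under 19 of 21 settings and Rpl29 under 20 of 21. Rpl7a fell by 0.53 in log2 units (standard error 0.118, adjusted p = 0.00986 in edgeR), under 18 of 21. Rpl21 fell by 0.54 in log2 units (standard error 0.135, adjusted p = 0.0154 in edgeR) and Rpl13a fell by 0.62 in log2 units (standard error 0.169, adjusted p = 0.0211 in edgeR), although for Rpl13a the groups overlapped. Rpl27 fell by 0.39 in log2 units (standard error 0.115, adjusted p = 0.0268 in edgeR). Rpl19, Rpl37 and Rpl27a, named to complete the count, also passed.

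Leaving out single samples changed this count as well. Without 2 month replicate 3 it was 43 (27 large and 16 small subunit genes, with 15.3% of all genes lower). Without 24 month replicate 3 it was 5, while 4283 of all genes passed in either direction, against 7120 as reported. With library totals in place of TMM 5 genes were lower and 1, Rpl24, was higher, while 6917 of all genes passed in either direction. That scaling moved the median of all genes from 0.03 to 0.22, and relative to it the ribosomal protein median was -0.29 in place of -0.28. At 18 months the relative median was -0.40 in place of -0.39. Read against each other (each sample scaled by the sum of the 84 genes), 3 genes remained past the threshold at 24 months, Rpl23a, Rpl29 and Rpl39l, all lower.

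**Figure D4:**
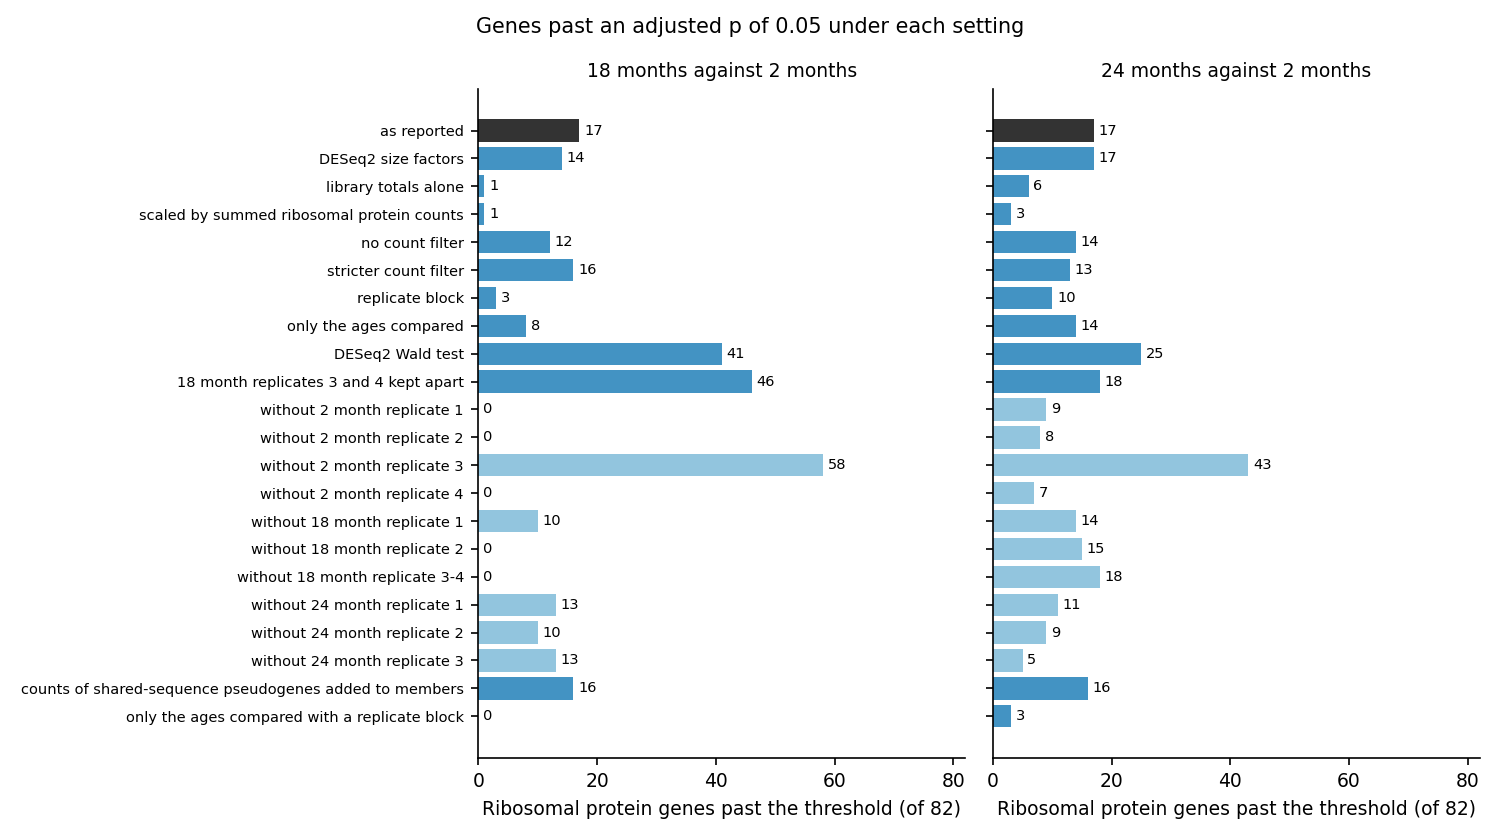
Number of ribosomal protein genes (of 82) past an adjusted p of 0.05 under each setting, for 18 against 2 months and 24 against 2 months; the dark bar is the value as reported and pale bars leave out 1 sample. The bars range from 0 to 58 on the left and from 3 to 43 on the right, and the longest bar in both panels leaves out the 2 month sample numbered 3.

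Between 24 and 18 months 0 of 82 genes passed in edgeR, in which 0.0% of all genes were lower and 0.00492% higher, and 0 passed in DESeq2. An unadjusted p under 0.05 was reached by 3 of 82 (all genes 10.4%). Samples of the 2 ages did not overlap for 1 lower gene (all genes 5.36%) and 17 higher genes (all genes 6.73%), and 11 of 82 lay below 0 (all genes 46.4%). The median log2 fold change was 0.12 (all genes 0.03), and in the share of counts the 24 month samples lay above the 18 month samples. That gap was narrow, with 1.94% in 24 month replicate 1 and 1.91% in 18 month replicate 2. In summed CPM the ages overlapped. There 24 month replicate 1 (18853) lay below 18 month replicates 1 and 2 (19416 and 19317). Rpl30, a large subunit protein, stood at 30.8, 27.9, 38.4 and 30.5 CPM at 2 months, at 24.4, 24.7 and 20.3 CPM at 18 months and at 42.4, 29.2 and 28.8 CPM at 24 months. It had a fitted log2 difference of 0.53 (standard error 0.180, adjusted p = 0.443 in edgeR) with no overlap, and its highest value came from 24 month replicate 1. Rpl35a varied most among samples of 1 age, with 76.9, 215, 121 and 201 CPM at 2 months, at 124, 54.4 and 134 CPM at 18 months and at 156, 168 and 109.8 CPM at 24 months, and had a fitted log2 difference of 0.48 (standard error 0.422, adjusted p = 0.690 in edgeR). These values are from the fit without a replicate block, and with the block 0 genes passed as well.

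The balance between the subunits differed by age. Counts of large subunit genes divided by counts of small subunit genes gave 1.37, 1.38, 1.41 and 1.36 at 2 months, 1.37, 1.32 and 1.32 at 18 months, and 1.29, 1.29 and 1.25 at 24 months. All 24 month samples lay below all others, and the 18 and 2 month samples overlapped. This ratio does not depend on the scaling, and 2 month replicate 3 had the highest value. With the counts of copies added, the ranges were 1.39 to 1.45, 1.34 to 1.38 and 1.29 to 1.33. The ratio is a sum over the chosen genes and was not tested. The part of the cell types whose marker sums are given below was not tested.

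**Figure D5:**
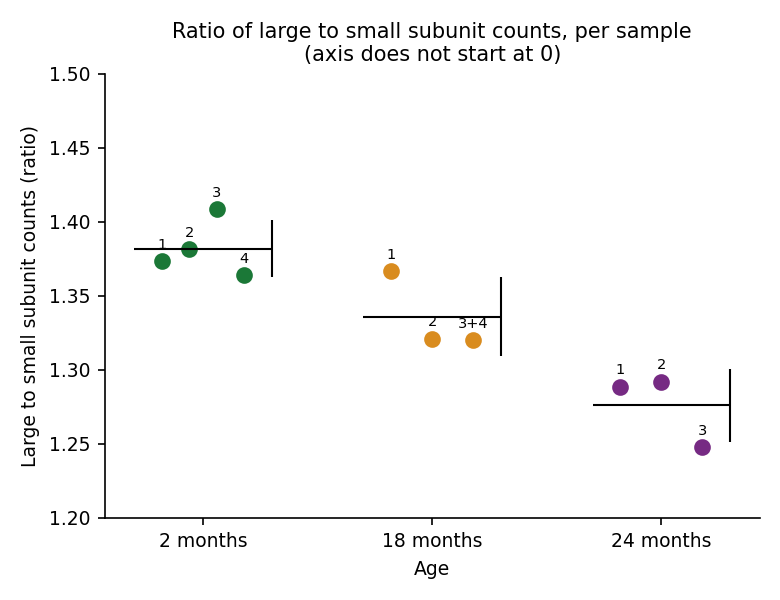
Counts of the 52 large subunit genes divided by counts of the 32 small subunit genes (vertical axis, which does not start at 0), by age; points are samples with their replicate numbers, lines the mean and SD. The 24 month samples, at 1.25 to 1.29, lie below every 2 and 18 month sample.

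As shares of the summed ribosomal protein counts, chosen after the values were seen, the genes that gave up most between 2 and 24 months were of the large subunit. Rplp0 went from 3.41% to 2.88%, Rpl23a from 1.08% to 0.654% and Rpl4 from 5.94% to 5.52%. The largest gains were those of Rps27, from 1.42% to 1.70%, Rpl22, from 1.08% to 1.33%, and Rpsa, from 2.02% to 2.27%. In CPM Rps27 stood at 341 ± 40.8 CPM (SD, n = 4) at 2 months and 339 ± 27.2 CPM (n = 3) at 24 months, a difference smaller than its spread at 2 months.

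The stalk is the arm of the large subunit that recruits elongation factors, with Rplp0 as its base and pairs of Rplp1 and Rplp2 as its tips. Rplp0 stood at 873, 807, 641 and 965 CPM at 2 months, at 644, 576 and 482 CPM at 18 months and at 509, 672 and 549 CPM at 24 months. It had a fitted log2 difference of -0.53 (standard error 0.176, adjusted p = 0.0757 in edgeR) at 18 months and fell by 0.51 in log2 units (standard error 0.176, adjusted p = 0.0465 in edgeR) at 24 months, with overlapping samples in both, and at 24 months it passed under 7 of 21 settings. Rplp1 stood at 491, 332, 354 and 508 CPM at 2 months, at 465, 383 and 348 CPM at 18 months and at 285, 421 and 322 CPM at 24 months and passed in neither comparison. Rplp2 stood at 210.2, 242, 221 and 265 CPM at 2 months, at 197, 182 and 179 CPM at 18 months and at 225, 201 and 221 CPM at 24 months; its 18 month samples lay below the others and it passed in neither.

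In the small subunit, Rpsa, also known as the laminin receptor precursor, stood at 489, 477, 383 and 593 CPM at 2 months, at 325, 441 and 335 CPM at 18 months and at 396, 467 and 492 CPM at 24 months. Fau, made as a fusion with a ubiquitin-like protein, stood at 220.1, 199, 187 and 212 CPM at 2 months, at 194, 179.5 and 171 CPM at 18 months and at 183, 206 and 184 CPM at 24 months and was the gene with the least spread within an age (SD of log2 0.0974). Neither passed in any comparison. The 4 genes on the X chromosome, Rpl10, Rpl36a, Rpl39 and Rps4x, had fitted log2 fold changes between -0.32 and -0.24 at 18 months and between -0.18 and -0.12 at 24 months, and none passed. Genes with a small nucleolar RNA in their span had medians of -0.40 and -0.28 over 29 genes, and the other 53 tested genes -0.37 and -0.25.

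Of the 84 genes, 7 are paralogs of another ribosomal protein gene. Rpl39l, a copy of the X-linked Rpl39 that is best known from male germ cells, had few counts and all of its 50-base stretches are unique. Its counts were 16, 20, 11 and 19 at 2 months, 4, 3, 0 and 1 in the 4 libraries of 18 months and 2, 1 and 0 at 24 months. In CPM it stood at 0.552, 0.622, 0.447 and 0.578 CPM at 2 months, at 0.142, 0.0946 and 0.0663 CPM at 18 months and at 0.0746, 0.0285 and 0 CPM at 24 months, and every older sample lay below every young one, while the older ages overlapped each other. It fell by 2.34 in log2 units (standard error 0.517, adjusted p = 0.0235 in edgeR) at 18 months and by 3.95 at 24 months (standard error 0.593, adjusted p = 0.00273 in edgeR), the latter under 20 of 20 settings that tested it. With so few counts the size of the fold rests on the prior count of the fit.

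Rpl10l, a copy of the X-linked Rpl10 needed in male meiosis, was too low to test. It had 4, 5, 9 and 3 counts at 2 months, 0, 0, 1 and 0 at 18 months and 0, 0 and 0 at 24 months. Summed over the 24 month samples, 0 counts against a floor of 3 puts it at least 5.0-fold lower than at 2 months, for counting error only. Its parent Rpl10 stood at 522, 471, 430.4 and 470.2 CPM at 2 months, at 451, 379 and 345 CPM at 18 months and at 438, 393 and 426 CPM at 24 months and the parent Rpl39 at 75.2, 69.5, 54.9 and 83.4 CPM at 2 months, at 67.4, 58.6 and 53.7 CPM at 18 months and at 61.2, 70.1 and 64.2 CPM at 24 months, and both overlapped between the ages and passed the threshold in neither comparison.

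Oocyte markers were also lower at the older ages, where 5.51% (18 months) and 15.8% (24 months) of all tested genes were lower. Of the 14 oocyte markers 13 were lower at 18 months and 14 at 24 months (edgeR), and their summed level was 535, 667, 286 and 487 CPM at 2 months, 78.8, 37.4 and 48.2 at 18 months and 50.01, 7.23 and 13.3 at 24 months, with none of them at 0 throughout an age. Within the 2 month samples replicate 3 had the lowest oocyte sum and the most Rpl10l counts (9 against 4, 5 and 3). So few counts cannot show whether Rpl10l follows the oocyte markers. The part of oocytes in the levels of Rpl39l and Rpl10l was not tested.

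Rpl36al, a copy of the X-linked Rpl36a, stood at 0.827, 0.994, 1.02 and 0.791 CPM at 2 months, at 0.957, 0.820 and 0.729 CPM at 18 months and at 0.597, 0.512 and 0.291 CPM at 24 months. The 24 month samples lay below all others. It fell by 0.96 in log2 units (standard error 0.299, adjusted p = 0.0330 in edgeR) at 24 months, but the gene shares 24.5% of its exon bases with Gm49383 and passed under 9 of 20 settings. Between 24 and 18 months it had a fitted log2 difference of -0.85 (standard error 0.318, adjusted p = 0.464 in edgeR). Rps27l, in human cells a target of p53, stood at 69.6, 55.9, 55.9 and 67.5 CPM at 2 months, at 56.9, 45.1 and 39.2 CPM at 18 months and at 48.4, 45.6 and 37.4 CPM at 24 months, and fell by 0.51 in log2 units (standard error 0.153, adjusted p = 0.0294 in edgeR) at 24 months. Relative to its parent it had 18.7, 15.6, 19.9 and 19.2 counts per 100 of Rps27 at 2 months, 18, 12.9 and 15 at 18 months and 15.8, 12.8 and 10.6 at 24 months, with overlap between the ages.

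Rpl7l1, a relative of Rpl7 found on large subunits in the making, stood at 109.8, 97.1, 74.4 and 98.3 CPM at 2 months, at 68.8, 63.3 and 53.3 CPM at 18 months and at 69.9, 71 and 71.9 CPM at 24 months. It fell by 0.62 in log2 units (standard error 0.137, adjusted p = 0.0238 in edgeR) at 18 months and by 0.42 at 24 months (standard error 0.136, adjusted p = 0.0379 in edgeR). Its parent Rpl7, at 639.6 ± 82.7 CPM (SD, n = 4), 494 ± 49.3 CPM (n = 3) and 519 ± 24.4 CPM (n = 3), passed in neither. Per 100 counts of Rpl7 there were 15.6, 14.4, 14.3 and 14.8 of Rpl7l1 at 2 months, 13.8, 11.7 and 12 at 18 months and 14.2, 13.3 and 13.5 at 24 months, so that every older sample lay below every young one. Rpl22l1, which can stand in for Rpl22, stood at 30.1, 22.1, 24.9 and 29.7 CPM at 2 months, at 28.7, 29.95 and 23.5 CPM at 18 months and at 26, 25.2 and 28.1 CPM at 24 months, and Rpl22 at 276, 285, 204 and 269.5 CPM at 2 months, at 251, 249.8 and 218 CPM at 18 months and at 237, 280.3 and 278 CPM at 24 months. Neither passed in any comparison, and the copy held 10.9, 7.75, 12.2 and 11 counts per 100 of the parent at 2 months and 11, 8.98 and 10.1 at 24 months. Rpl3l, the form of Rpl3 in striated muscle, had 1, 2, 5 and 3 counts at 2 months, 3, 2, 3 and 1 at 18 months and 4, 10 and 3 at 24 months, which gives no comparison at this depth, and its parent Rpl3 passed in none.

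Other members with uneven values were Rpl26 and Rpl24. Rpl26, which binds p53 mRNA beside its ribosomal role, had a fitted log2 difference of -0.61 (standard error 0.344, adjusted p = 0.190 in edgeR) at 24 months. Rpl24 stood at 0.414, 0.435, 0.650 and 0.548 CPM at 2 months, at 0.532, 0.631 and 1.06 CPM at 18 months and at 0.933, 0.797 and 0.843 CPM at 24 months; it had a fitted log2 difference of 0.50 (standard error 0.313, adjusted p = 0.313 in edgeR) at 18 months and a fitted log2 difference of 0.74 (standard error 0.304, adjusted p = 0.0817 in edgeR) at 24 months. With the counts of its copies added both turned negative, to -0.36 and -0.17.

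Lists of genes that make and serve ribosomes, chosen with earlier results of these data known, are set beside the same share of all genes. Of 35 ribosome biogenesis genes 18 were lower at 18 months (51.4%, all genes 5.51%) and 17 at 24 months (48.6%, all genes 15.8%), 0 were higher, and the medians were -0.48 and -0.41. Rrp12, which exports precursors of both subunits, went from 32.8 ± 0.973 CPM (SD, n = 4) to 18.7 ± 1.46 CPM (n = 3) and 17.6 ± 3.23 CPM (n = 3). It fell by 0.81 in log2 units (standard error 0.131, adjusted p = 0.0127 in edgeR) at 18 months and, at 24 months, fell by 0.89 in log2 units (standard error 0.131, adjusted p = 0.00257 in edgeR). Nhp2, a core protein of the complexes that modify uridines in ribosomal RNA, fell by 0.69 in log2 units (standard error 0.115, adjusted p = 0.0134 in edgeR) at 18 months and fell by 0.59 in log2 units (standard error 0.115, adjusted p = 0.00609 in edgeR) at 24 months.

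Of 43 translation factors 9 were lower at 18 months (20.9%, all genes 5.51%) and 22 at 24 months (51.2%, all genes 15.8%), with 0 higher and medians of -0.33 and -0.36. Eif4a1, the helicase that opens mRNA 5′ ends, fell by 0.60 in log2 units (standard error 0.144, adjusted p = 0.0293 in edgeR) and Eif2s1, the phosphorylated subunit of the factor that brings the first tRNA, fell by 0.56 in log2 units (standard error 0.131, adjusted p = 0.0270 in edgeR), both at 18 months. At 24 months Eif3l, a subunit of the scaffold on the small subunit, fell by 1.11 in log2 units (standard error 0.173, adjusted p = 0.00293 in edgeR) and Eif5a, which helps form difficult peptide bonds, fell by 0.69 in log2 units (standard error 0.130, adjusted p = 0.00554 in edgeR).

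Of 14 genes of RNA polymerase I, which transcribes ribosomal RNA, 3 were lower at each of the older ages and 0 higher. That is 21.4%, against 5.51% of all genes at 18 months and 15.8% at 24 months, so the share at 24 months was near the background. Rrn3, its initiation factor, fell by 0.36 in log2 units (standard error 0.0820, adjusted p = 0.0258 in edgeR) at 18 months and fell by 0.55 in log2 units (standard error 0.0823, adjusted p = 0.00274 in edgeR) at 24 months, and the subunit gene Polr1c fell by 0.44 in log2 units (standard error 0.0854, adjusted p = 0.0177 in edgeR) and fell by 0.30 in log2 units (standard error 0.0849, adjusted p = 0.0236 in edgeR). Of 15 regulators around mTOR and Myc 1 was lower at 18 months (6.67%, all genes 5.51%) and 4 at 24 months (26.7%, all genes 15.8%), with 0 higher, and with so few genes neither share is a result about the list. Eif4ebp1, the repressor of cap binding that mTOR switches off, fell by 0.89 in log2 units (standard error 0.235, adjusted p = 0.0403 in edgeR) at 18 months and fell by 1.25 in log2 units (standard error 0.238, adjusted p = 0.00574 in edgeR) at 24 months, and Mycn fell by 1.29 in log2 units (standard error 0.271, adjusted p = 0.00797 in edgeR) at 24 months.

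The proteins of the mitochondrial ribosome, a separate set of genes, can be set beside those of the cytosol. Of 77 tested genes 19 were lower at 18 months (24.7%, all genes 5.51%) and 47 at 24 months (61.0%, all genes 15.8%), with 0 higher and medians of -0.34 and -0.46. Mrpl39 fell by 0.63 in log2 units (standard error 0.103, adjusted p = 0.0130 in edgeR) and Mrps22 fell by 0.71 in log2 units (standard error 0.138, adjusted p = 0.0170 in edgeR) at 18 months, and at 24 months Mrpl34 fell by 1.01 in log2 units (standard error 0.142, adjusted p = 0.00228 in edgeR). In none of these 5 lists did a gene pass between 24 and 18 months (edgeR), where the unadjusted share of all genes under 0.05 was 10.4%. Without 2 month replicate 3, the counts at 18 and 24 months were 23 and 26 for biogenesis, 15 and 25 for translation factors and 18 and 53 for the mitochondrial ribosome. In that fit 2503 and 6233 of all genes passed in either direction, against 2349 and 7120 as reported. With library totals in place of TMM the list counts were 4 and 7, 4 and 8, and 11 and 29, and 1988 and 6917 of all genes passed in either direction. In both settings the list counts continue those of lower genes given above. Totals over both directions are therefore not a like background for them. That scaling moved the median of all genes from 0.01 to 0.10 at 18 months and from 0.03 to 0.22 at 24 months. Why the list counts were smaller under it was not tested.

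Summed marker transcripts of several cell types differed between the ages beside these results. Among all tested genes, 5.51% were lower and 6.04% higher at 18 months, and 15.8% were lower and 19.2% higher at 24 months. All 8 cell division genes were lower at both older ages, with sums of 626, 609, 347 and 510.3 CPM at 2 months, 183, 117 and 149.7 at 18 months and 175, 99.5 and 62.3 at 24 months. Of 9 granulosa markers 3 and 4 were lower, with sums of 4103, 4043, 2998 and 3991 CPM at 2 months, 2729, 1636 and 2505 at 18 months and 3329.7, 1444 and 2060.1 at 24 months. The 18 month sums lay below all those of 2 months, and at 24 months replicate 1 overlapped them. All 10 macrophage markers were higher at both ages, with sums of 332, 364, 399 and 453 CPM at 2 months, 1043, 720.3 and 901 at 18 months and 1044, 949 and 1087 at 24 months. Of 9 T cell markers 6 and 9 were higher, from 9.07 to 13.0 CPM at 2 months to between 21.1 and 60.5 CPM later. Oviduct epithelium markers, of tissue that lies against the ovary, stood at 10.9, 9.94, 5.28 and 7.67 CPM at 2 months, 10.5, 75.1 and 52.8 at 18 months and 12.8, 62.9 and 749.6 at 24 months, with 1 and 5 of 5 higher. No marker of these 5 lists was at 0 in every sample of an age. Luteal and theca markers summed to 53322, 30329, 70937 and 33062 CPM at 2 months, 36727, 24601 and 22288 at 18 months and 23838, 12978 and 6213 at 24 months, with 0 and 3 of 9 lower. The part of these markers' cell types in the levels of the ribosomal protein genes was not tested.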

How the data were processed

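Whole ovaries of 3 ages were profiled by bulk RNA sequencing, with 11 libraries. Per the labels' protocols, RNA was taken with Trizol, a column and DNase, and the sequencing libraries came from a strand-specific mRNA kit of Illumina. The deposited table holds raw read counts per gene, which the authors made with FastQC, cutadapt, STAR and HTSeq on mm10, per the submitters' processing notes. Versions, annotation release and strand setting: not given in the sources used. Gene coordinates matched GENCODE M21 for 78 of the 84 genes.

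Depth was 5231724 to 33407509 counts per library. 18 month replicates 3 and 4 were summed, leaving 10 samples. Genes with low counts were removed by filterByExpr, leaving 20331, and edgeR 4.0.16 (R 4.3.3; TMM, robust quasi-likelihood, all ages in 1 model, 7 residual degrees of freedom, common biological coefficient of variation 0.32) tested each comparison, with Benjamini-Hochberg adjustment over all of them. Standard errors are the fold divided by the root of F. Alternatives used DESeq2 1.42.0, other scalings and filters, a replicate block, only the ages compared, and samples left out. The scripts were tested on simulated data.

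The members and lists were chosen with earlier results of these data known. Genes named are up to 8 called in each direction per comparison by adjusted p, the paralogs with their parents, the stalk genes, Rpsa and Fau, the 3 highest and 3 lowest per length, the 2 highest and 2 lowest folds, and up to 2 per pathway list. A gene that met this rule is not reported here by name. Pairing by replicate number was checked from the samples' deviations. Between 24 and 18 months the correlations of same-numbered samples were 0.389, 0.280 and 0.147, all above 0.1, although no label ties these samples. A pair with different numbers, 24 month replicate 3 and 18 month replicate 2, also lay above 0.1, at 0.135. The other pairs with different numbers had negative correlations. The values given are from the fit without a replicate block, and the block is an alternative. The comparisons with 2 months showed no such pairing.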

Additional observations from a re-analysis of the deposited data

Results flagged for a closer look

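Within the 2 month group, the level of 1 sample lay far from the other three for 14 of 86 quantities tested over its 4 samples, the levels of 82 genes and 4 summed shares or ratios. The measure is the gap to the nearest other sample as a part of the whole range, which must exceed 0.829. In 2 month replicate 3 the level was far below the others, with a gap of 0.894 for Rpl13, 0.876 for Rps15a, 0.893 for Rps27a, 0.859 for Rps20, 0.918 for Rps4x, 0.912 for Rpl4, 0.872 for Rps16, 0.875 for Rpl12, 0.911 for Rpl27a, 0.941 for Rpl32, 0.862 for Rps7, 0.853 for Rps28 and 0.892 for Rpl36a. In 2 month replicate 4 the level of Rpl26 was far above the others, with a gap of 0.869. Chance alone gives such a gap in about 1 in 20 groups, and these genes share the same samples. The cause was not tested.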

How the results depend on the processing

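At 18 against 2 months, the 17 ribosomal protein genes past the threshold became 1 with library totals alone, 1 when scaled by the summed ribosomal protein counts, 3 with the replicate block, 8 with only the ages compared and 0 with that and the block, 41 with DESeq2 and 46 with 18 month replicates 3 and 4 kept apart. Leaving out 1 sample gave 0 to 58. Over all genes 2349 passed as reported and 1988, 4007, 1034, 2597, 541, 4052 and 4000 in those settings, in the same order. With 1 sample left out, 375 to 2748 of all genes passed. At 24 against 2 months, the 17 became 6 with library totals, 3 with the summed scaling and 10 with the replicate block. With only the ages compared and the block 3 passed, and leaving out 1 sample gave 5 to 43. Over all genes 7120 passed as reported and 6917, 6086, 5129 and 1952 in those settings, in the same order. With 1 sample left out, 4283 to 7467 of all genes passed. The summed scaling divides each sample by the sum of these same genes. Their median log2 fold change is therefore near 0 by design (0.0044 at 18 months and 0.0203 at 24 months). The median of all genes moved to 0.37 and 0.29 there, and relative to it the ribosomal protein medians were -0.37 and -0.27. With library totals the median became -0.0738 at 24 months. In the other settings the medians moved less than the spread between samples. Between 24 and 18 months 0 genes passed in edgeR and DESeq2 under every setting, while an unadjusted p under 0.05 was reached by 3 genes as reported and by 1 to 8 over the other settings. The 18 month share of counts became 1.97% with pseudogenes added. With those pseudogenes Rpl24 turned to -0.36 and -0.17. With the summed scaling, which raised the median of all genes, Rrn3 at 18 months turned to 0.012. Apart from what the summed scaling fixes by design, the cause of these changes was not tested. The shallow 18 month replicates limit genes of few counts, such as Rpl39l and Rpl10l.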
